A study of Homo sapiens with 16 samples.

Results

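The genes described here are the 8 NF-kappaB genes NFKB1, NFKB2, RELA, RELB, NFKBIA, NFKBIZ, BCL3 and TNFAIP3, taken by name from a panel of 579 immune genes and 15 housekeeping genes. The first 4 encode subunits of the transcription factor and the other 4 encode its inhibitors and regulators. All 8 were measured in OCI-AML2, an established human acute myeloid leukaemia cell line. The cells carried short hairpin RNA constructs against PNPase, an exoribonuclease of the mitochondrion, or against SUV3, the RNA helicase that works with it in mitochondrial RNA decay. The 8 groups were PNPase knockdown on days 3, 4, 5 and 6 and SUV3 knockdown on days 3, 4, 5 and 6, with 2 samples in each group and 16 samples in all. The replicates were numbered 545 and 1717 for PNPase and 1595 and 1727 for SUV3. The design text calls them biological replicates and states that each was sampled on every day; the sources do not say whether the numbers stand for different hairpins. Neither cells without a knockdown nor the targeted genes were analysed here, so no value is a change against control cells and the knockdown itself was not checked.

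NF-kappaB acts as a dimer of Rel proteins. RELA (p65) pairs mostly with p50, which is made from the NFKB1 product p105, and RELB pairs with p52, which is made from the NFKB2 product p100. In resting cells IkappaB-alpha, the product of NFKBIA, holds RELA dimers in the cytoplasm; kinase signalling destroys it, and the freed dimers switch on NFKBIA again, which closes a negative feedback loop. NFKBIZ (IkappaB-zeta) and BCL3 encode atypical IkappaB proteins that bind p50 or p52 dimers in the nucleus and can raise or lower the activity of target genes. TNFAIP3 encodes A20, a ubiquitin-editing enzyme that damps signalling upstream of the kinases. NFKB1, NFKB2, RELB and the genes of all 4 regulators are themselves known targets of the factor.

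In general, feedback on NF-kappaB target genes acts through NF-kappaB motifs in their promoters, so the 250 bases before the start site are printed for 5 of the genes, 5′ to 3′ along the gene's strand. The sequences are from RefSeq on GRCh38.p14, whose promoter table held 7 of the 8 genes, in 12 windows; RELB had no entry. Capitals mark matches to the 10-letter pattern GGG, any 2 bases, then TTTCC, which is a form of the NF-kappaB binding motif, read on either strand.
NFKBIA, chr14:35404750-35404999, minus strand: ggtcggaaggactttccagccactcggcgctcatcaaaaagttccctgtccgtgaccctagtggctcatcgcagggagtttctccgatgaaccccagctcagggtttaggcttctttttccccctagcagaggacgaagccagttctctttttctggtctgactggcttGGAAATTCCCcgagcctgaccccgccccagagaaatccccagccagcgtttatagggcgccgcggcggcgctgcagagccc
NFKBIZ, chr3:101827740-101827989, plus strand: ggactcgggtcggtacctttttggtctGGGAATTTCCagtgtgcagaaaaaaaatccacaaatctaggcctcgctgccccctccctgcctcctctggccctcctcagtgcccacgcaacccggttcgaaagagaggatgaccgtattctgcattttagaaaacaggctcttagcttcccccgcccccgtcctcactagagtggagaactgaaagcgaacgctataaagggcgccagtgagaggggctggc
TNFAIP3, chr6:137867009-137867258, plus strand: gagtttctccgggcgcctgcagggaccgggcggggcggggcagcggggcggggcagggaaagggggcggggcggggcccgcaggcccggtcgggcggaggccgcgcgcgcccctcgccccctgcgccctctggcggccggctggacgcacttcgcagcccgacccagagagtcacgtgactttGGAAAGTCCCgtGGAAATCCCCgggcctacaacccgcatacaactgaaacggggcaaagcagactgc
NFKB1, chr4:102501109-102501358, plus strand: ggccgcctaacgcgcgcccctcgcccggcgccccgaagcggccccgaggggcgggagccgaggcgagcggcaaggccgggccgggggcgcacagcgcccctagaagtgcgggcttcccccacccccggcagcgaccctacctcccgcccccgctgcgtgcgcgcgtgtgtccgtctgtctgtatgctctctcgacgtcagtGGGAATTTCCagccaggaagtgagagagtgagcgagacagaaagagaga
BCL3, chr19:44748458-44748707, plus strand: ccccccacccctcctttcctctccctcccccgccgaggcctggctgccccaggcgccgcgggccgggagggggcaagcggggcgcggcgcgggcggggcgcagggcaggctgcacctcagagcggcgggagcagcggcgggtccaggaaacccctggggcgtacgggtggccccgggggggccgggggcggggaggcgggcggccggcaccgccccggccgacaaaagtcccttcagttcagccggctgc

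NFKBIA held 1 match on the opposite strand, which began 81 bases before the start site. NFKBIZ held 1 match on its own strand, 223 bases before the start. TNFAIP3 held 2 matches on the opposite strand, 67 and 55 bases before the start. NFKB1 held 1 match, 49 bases before the start. NFKBIZ and NFKB1 each had 1 other window, at a later start site and not printed, which held no match. The BCL3 window, shown as the contrast, held none in these letters. The start sites shown for BCL3 and TNFAIP3 lie inside the annotated gene, so other start sites of these genes have windows that were not searched. Over all windows, 6 of 12 held the pattern, in 5 of 7 genes: the 4 printed ones and NFKB2, while the windows of RELA had no match. The pattern was present in 1.73% of the 35114 promoter windows in the table and in 4.89% of the 675 windows of panel genes. A looser pattern, GGG, any 5 bases, then CC, which includes the first, was present in 11 of the 12 windows, against 54.4% of all windows. A match describes letters and does not show that the factor was bound in these cells.

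On GRCh38.p14 the genes lie on 7 chromosomes. NFKB1 spans chr4:102501359-102617302, NFKB2 spans chr10:102394110-102402529, RELA spans chr11:65653601-65663857 and NFKBIA spans chr14:35401513-35404749. NFKBIZ spans chr3:101827990-101861022 and TNFAIP3 spans chr6:137866349-137883312. BCL3, chr19:44747705-44760044, and RELB, chr19:45001464-45038192, share a chromosome. Probe positions within the transcripts were not used here.

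The assay counts fluorescent barcodes hybridised to RNA. Deposited values summed to 311396 to 493370 per sample over all genes. The 8 negative control probes averaged 6.80, and their mean plus 2 SD was 12.9; 354 genes had a mean above that level. Of the myeloid markers 9 of 10 measured were above the negative level. Of the T and NK cell markers 3 of 11 were above it: CD4, NCAM1 and PRF1, which averaged 187, 365 and 21.8. CD3D and CD3E averaged 4.62 and 5.44, and the sum over the 11 markers was 366 to 928 per sample. Of the B cell markers 4 of 7 were above the negative level, and their summed level was 83 to 126 per sample. Levels below are log2(value + 1) after each sample was divided by a factor, the geometric mean over the 15 housekeeping genes. In log2 this factor was -0.35 ± 0.20 over the 4 day 3 samples and 0.26 ± 0.25 over the 4 day 6 samples (mean ± SD). The like factor from the 6 positive control probes was 0.01 ± 0.25 on day 3 and 0.02 ± 0.18 on day 6. The summed deposited value of the myeloid markers was 3884 to 20004 on day 3 and 4781 to 41245 on the later days. These ranges overlapped, and the lowest and highest sums were both SUV3 samples. The sum mostly follows S100A8 and S100A9, whose means were 4650 and 8740, while the next marker, CSF3R, averaged 758. The part of the housekeeping factor's shift and of this spread in the results was not tested beyond the scalings given below. In bulk RNA of this kind, fewer expressing cells and less RNA per cell cannot be told apart.

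All 8 genes were measured above the negative level in every sample. The mean deposited value was 628 for NFKBIA, 251 for TNFAIP3, 245 for RELA, 116 for NFKB2, 112 for NFKB1, 62.6 for RELB, 53.4 for NFKBIZ and 30.3 for BCL3. Each value depends on the gene's own probe, so these means describe how well each gene was measured and are not compared between genes. BCL3 came nearest to the background, with a lowest deposited value of 15.

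The first question was whether the genes differed between day 3 and the later days. Within each replicate, day 3 was set against the mean of days 4 to 6, with both knockdowns averaged, in a limma model over all genes with Benjamini-Hochberg adjustment. Of the 4 regulators 3 were higher on day 3 (NFKBIA, NFKBIZ and BCL3), and of the 4 subunits 1 was (RELB). The panel as a whole had 78 genes higher and 18 lower on day 3 at an adjusted p under 0.05, which is 13.1% and 3.03% of all genes, or 16.2% in either direction; here 4 of 8 were higher and none was lower. The median difference was 0.47 over the 8 genes and 0.19 over the panel.

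**Figure D1:**
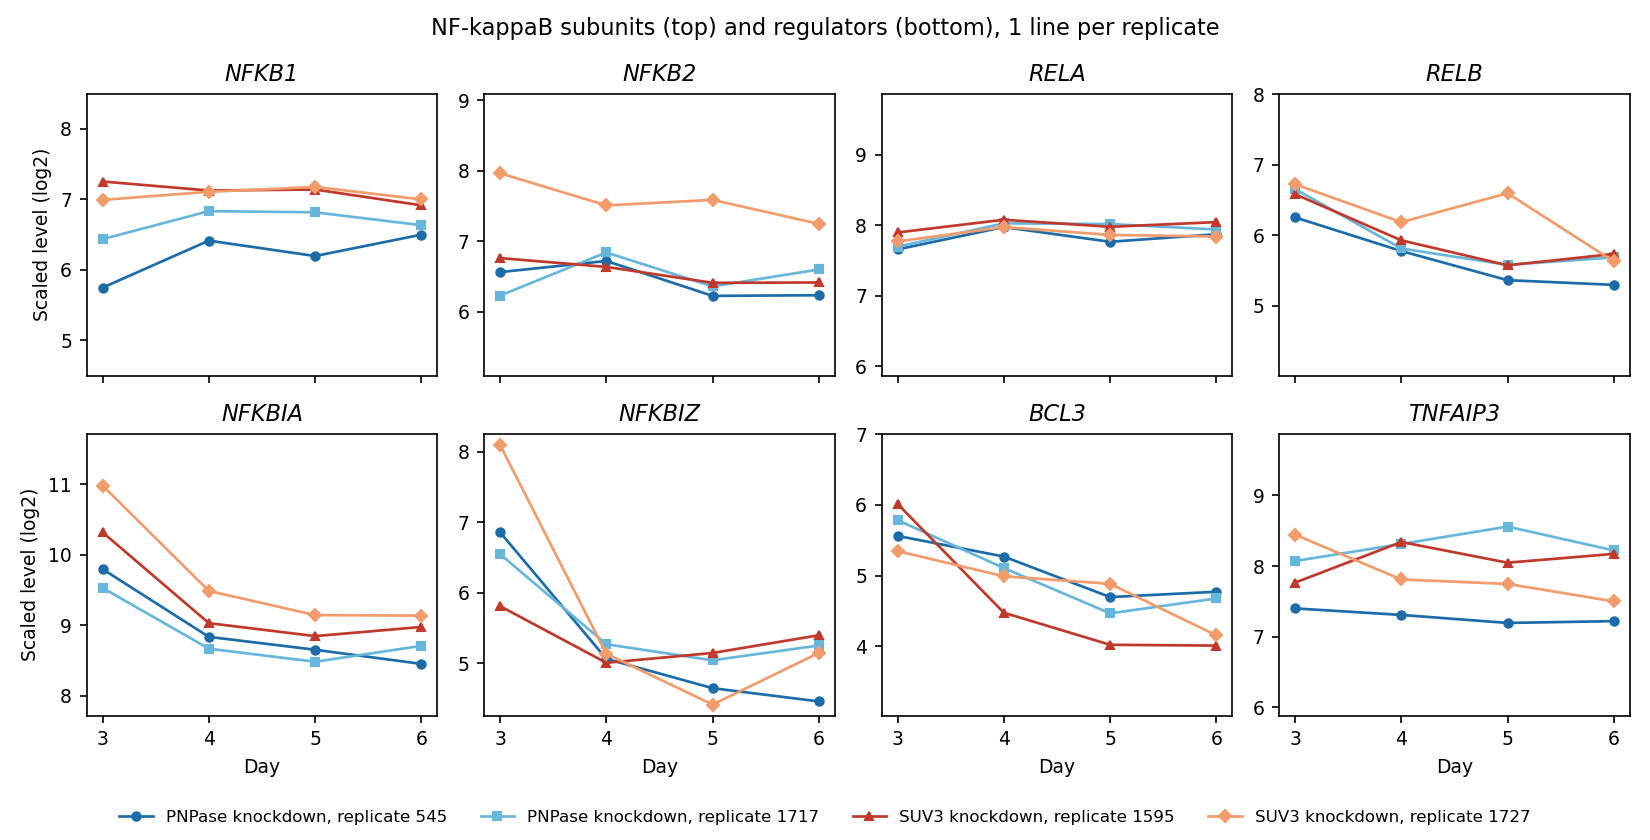
Housekeeping-scaled log2(value + 1) of the 8 genes by day after transduction, with 1 line for each of the 4 replicates and points for the 16 samples. On this scale, in NFKBIA, NFKBIZ, BCL3 and RELB every line is highest on day 3, and in RELA every line is lowest on day 3; the lines of the other 3 genes do not share a shape.

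NFKBIA, the inhibitor at the centre of the feedback loop, was higher on day 3 in all 4 replicates. After PNPase knockdown its log2 levels on days 3, 4, 5 and 6 were 9.80, 8.84, 8.66 and 8.46 in replicate 545 and 9.53, 8.67, 8.49 and 8.71 in replicate 1717. After SUV3 knockdown they were 10.32, 9.03, 8.85 and 8.98 in replicate 1595 and 10.98, 9.49, 9.15 and 9.14 in replicate 1727. On this scale all 4 day 3 samples lay above all 12 later samples, but the unscaled deposited values overlapped, at 519 to 1682 on day 3 and 419 to 630 later; in replicate 1717 day 3 (519) was below day 6 (596). Day 3 was higher by 1.29 ± 0.10 on the log2 scale (estimate ± SE, 4 replicates), 95% confidence interval 1.05 to 1.53, with a limma adjusted p of 0.00027. Within replicates the fold was 1.88 to 3.30. The call held under all 17 alternative settings run for it, with estimates from 0.81 to 1.38 and adjusted p-values up to 0.0229.

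NFKBIZ had the largest mean difference and the widest spread. Its log2 levels on days 3 to 6 were 6.86, 5.06, 4.65 and 4.46 in PNPase replicate 545 and 6.55, 5.27, 5.04 and 5.25 in replicate 1717. In SUV3 replicate 1595 they were 5.81, 5.01, 5.15 and 5.40, and in replicate 1727 they were 8.10, 5.14, 4.42 and 5.15. Every day 3 sample lay above every later sample on this scale, and the day 3 samples themselves ran from 5.81 to 8.10. The unscaled deposited values were 39 to 227 on day 3 and 20 to 53 later, and in replicate 1595 day 3 (39) was below day 6 (41). Day 3 was higher by 1.83 ± 0.36 (adjusted p = 0.0116, limma, 4 replicates), and the fold within replicates ran from 1.54 in 1595 to 9.17 in 1727. This SE pools the spread between replicates over all days, and that spread was uneven. After SUV3 knockdown the SD of the 2 replicates was 1.62 on day 3 and 0.09, 0.52 and 0.18 on days 4 to 6. After PNPase knockdown it was 0.22, 0.15, 0.28 and 0.56 on days 3 to 6. The SE and p-value therefore need not measure the spread of the day 3 difference itself. Without replicate 1727 the estimate was 1.19, and without replicate 1595 it was 2.47. In each of these fits the spread came from the PNPase replicates alone.

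BCL3, the other atypical nuclear regulator, was likewise higher on day 3. Its levels were 5.56, 5.27, 4.69 and 4.77 in log2 on days 3 to 6 in PNPase replicate 545 and 5.78, 5.11, 4.46 and 4.67 in replicate 1717. In SUV3 replicate 1595 they were 6.01, 4.47, 4.02 and 4.01, and in replicate 1727 they were 5.35, 4.99, 4.88 and 4.15. The day 3 samples lay above all later ones on this scale by a small margin, the lowest at 5.35 beside a highest later sample of 5.27. Unscaled, they overlapped, at 33 to 45 on day 3 and 15 to 40 later, and in replicate 1717 day 3 (38) was below day 4 (40). Day 3 was higher by 1.05 ± 0.19 (adjusted p = 0.0079, limma), a fold of 1.57 to 3.60 within replicates.

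RELB, the subunit of the non-canonical dimer, was higher on day 3 by 0.79 ± 0.15 (adjusted p = 0.0091, limma). On days 3 to 6 its log2 levels were 6.25, 5.78, 5.36 and 5.30 in PNPase replicate 545 and 6.65, 5.81, 5.58 and 5.69 in replicate 1717. They were 6.58, 5.93, 5.57 and 5.73 in SUV3 replicate 1595 and 6.72, 6.19, 6.59 and 5.63 in replicate 1727. Day 3 was the highest day in each replicate on this scale, by a fold of 1.5 to 1.95 over the later mean, but the day 5 sample of 1727 lay above 2 of the 4 day 3 samples. With no scaling the RELB difference was 0.34 (adjusted p = 0.125), and with scaling to the positive control probes it was 0.32 (adjusted p = 0.161).

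The calls of NFKBIZ, BCL3 and RELB were also lost without either PNPase replicate, though the estimates moved little beside their SE. Without replicate 545 the estimates were 1.635, 1.15 and 0.84, and without replicate 1717 they were 2.02, 0.96 and 0.74. A lone replicate leaves no residual in this model, so the spread in these fits came from the SUV3 replicates alone. Without the day 6 samples the adjusted p-values of the 3 genes in limma were 0.0533, 0.0656 and 0.0551. The estimates in these fits ranged from 0.70 to 2.02 and kept their direction.

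The other 3 subunits and TNFAIP3 did not pass the test. RELA, the main activating subunit, had log2 levels on days 3 to 6 of 7.66, 7.98, 7.77 and 7.87 in PNPase replicate 545 and 7.70, 8.03, 8.02 and 7.94 in replicate 1717. In SUV3 replicates 1595 and 1727 they were 7.90, 8.08, 7.98 and 8.05, and 7.77, 7.97, 7.86 and 7.84. RELA was lowest on day 3 in all 4 replicates, as were 4.21% of panel genes, by a fold of only 1.09 to 1.23. The difference was -0.19 ± 0.07 (limma unadjusted p = 0.0319, adjusted p = 0.115), with a 95% interval of -0.36 to -0.02. With no scaling it was -0.65 (adjusted p = 0.00818), and it also passed with scaling to the total or to the positive controls, after subtraction of the negative controls, and when only genes above the negative level were tested.

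NFKB1, the precursor of p50, had log2 levels of 5.75, 6.41, 6.19 and 6.50 on days 3 to 6 in PNPase replicate 545 and 6.43, 6.83, 6.81 and 6.63 in replicate 1717. In SUV3 replicate 1595 they were 7.25, 7.12, 7.14 and 6.91, and in replicate 1727 they were 6.99, 7.11, 7.17 and 7.0. Day 3 was the lowest day in both PNPase replicates and, by a small margin, in 1727, and the highest in 1595. Its difference was -0.21 ± 0.10 (adjusted p = 0.174, limma), and it passed, lower on day 3, with no scaling (-0.67, adjusted p = 0.00535) and with the total, the positive controls or the median log ratio as the scale.

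NFKB2, the precursor of p52, had log2 levels on days 3 to 6 of 6.56, 6.72, 6.23 and 6.24 in PNPase replicate 545 and 6.23, 6.84, 6.36 and 6.60 in replicate 1717. They were 6.76, 6.64, 6.41 and 6.42 in SUV3 replicate 1595 and 7.96, 7.51, 7.59 and 7.25 in replicate 1727. The 4 samples of 1727 were the highest of all 16, and the day 3 and later samples overlapped. The day 3 difference was 0.15 ± 0.11 (adjusted p = 0.399, limma) and was negative with no scaling (-0.31), scaling to the total (-0.07) and scaling to the positive controls (-0.32).

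TNFAIP3 had no common direction over the replicates. Its log2 levels on days 3 to 6 were 7.40, 7.31, 7.19 and 7.22 in PNPase replicate 545 and 8.07, 8.31, 8.56 and 8.22 in replicate 1717. In SUV3 replicate 1595 they were 7.76, 8.34, 8.05 and 8.17, and in replicate 1727 they were 8.44, 7.81, 7.75 and 7.50. Day 3 was the highest day in 545 and 1727 and the lowest in 1717 and 1595, whichever knockdown they carried. The mean difference was 0.05 ± 0.18 (adjusted p = 0.888, limma), with a 95% interval of -0.37 to 0.47, and it was negative under all 4 other scalings.

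**Figure D2:**
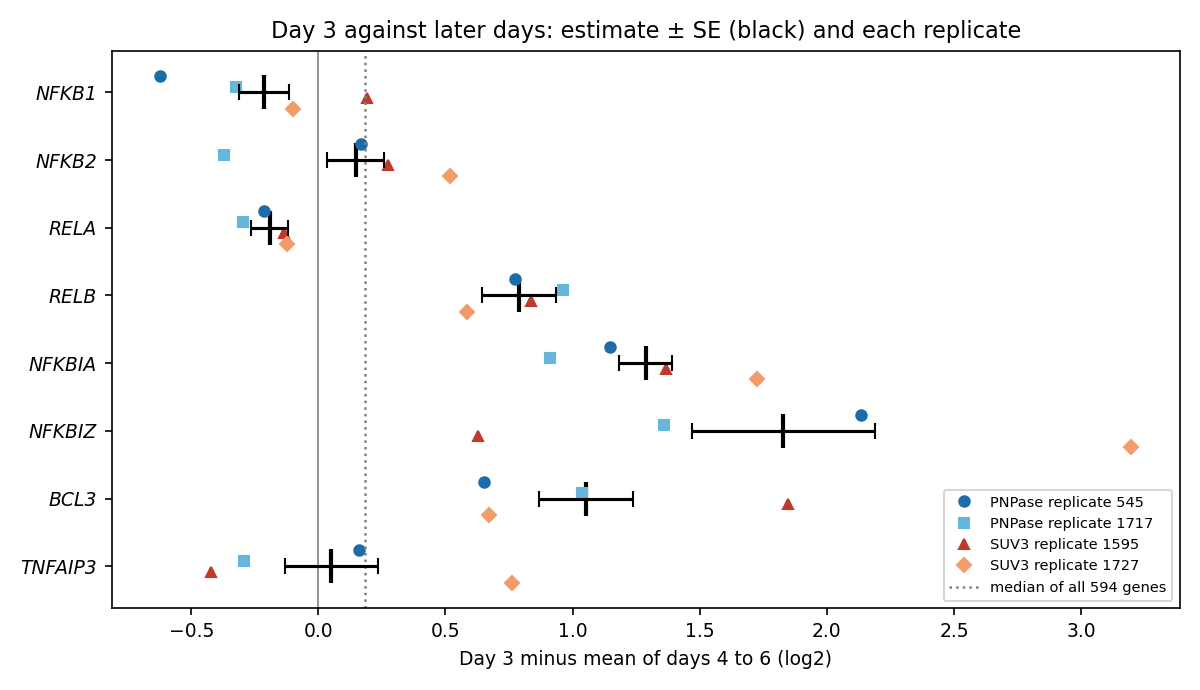
Day 3 minus the mean of days 4 to 6 in log2 for the 8 genes, as the limma estimate ± SE (black) and the value of each replicate (coloured); the dotted line is the panel median of 0.19. The 4 replicate values of NFKBIA, NFKBIZ, BCL3 and RELB are all above 0, those of RELA are all below 0, and those of TNFAIP3 fall on both sides.

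On the housekeeping scale the 4 day 3 samples lay above all 12 later samples in NFKBIA, NFKBIZ and BCL3, a pattern seen in 24 panel genes, or 4.04%. Day 3 was the highest day within all 4 replicates in those 3 genes and RELB, against 11.1% of the panel. Both patterns depended on the scale: in the deposited values the day 3 and later samples overlapped in all 4 genes, and at least 1 replicate of each had a later day above day 3. For RELB these were replicate 1717, with 70 on day 3 and 72 on day 6, and replicate 1727, with 87 on day 3 and 94 on day 5.

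The housekeeping factor spanned 2.03-fold over the samples, so the contrast was also computed on other scales. The median of the panel's day 3 differences was 0.19 with the housekeeping scale, -0.25 with no scaling, -0.02 with the total, -0.26 with the positive controls and 0.05 with the median log ratio. The calls split into 78 higher and 18 lower on the housekeeping scale, 28 and 141 with no scaling, 41 and 62 with the total, 28 and 129 with the positive controls, and 43 and 34 with the median log ratio. NFKBIA, NFKBIZ and BCL3 passed and were higher on day 3 under all 5 scalings.

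**Figure D3:**
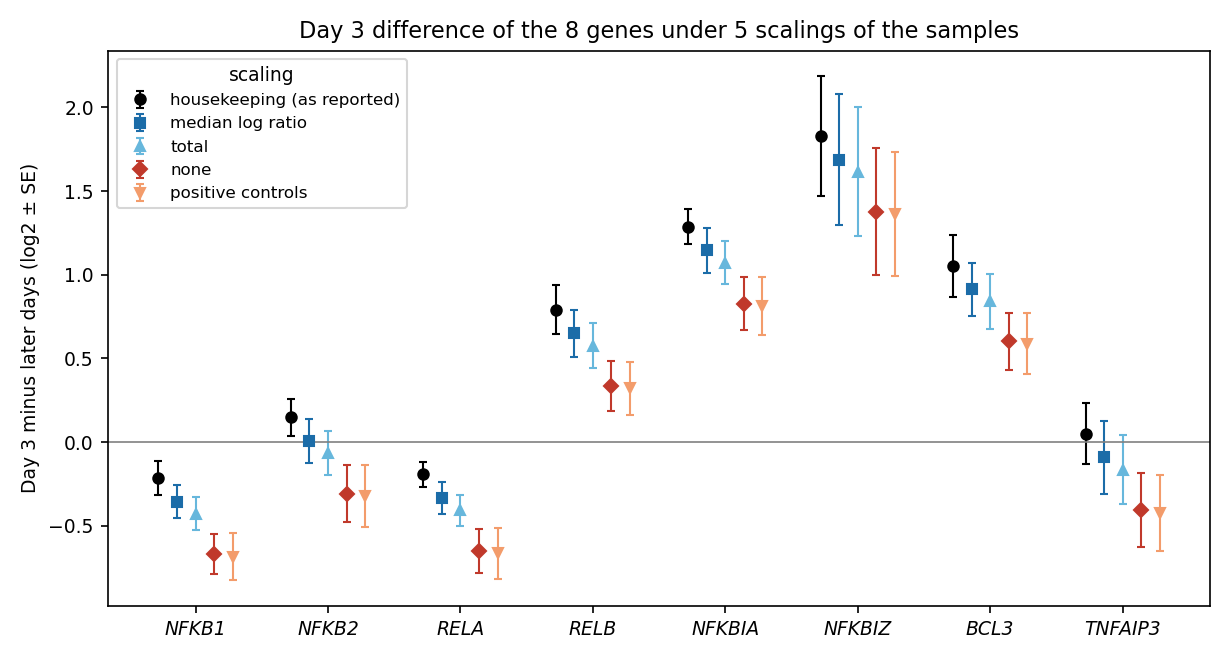
Day 3 minus the mean of days 4 to 6 in log2 for the 8 genes under the housekeeping scale and 4 other scalings, as limma estimates with bars of ± SE. NFKBIA, NFKBIZ and BCL3 lie above 0 under all 5, and NFKB1 and RELA lie below 0 under all 5.

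A ratio between genes of the same sample does not depend on the scale. Set against RELA, the log2 ratio of the NFKBIA level was 1.84 to 3.22 in the 4 day 3 samples and 0.47 to 1.52 in the 12 later samples. The ratio was higher on day 3 by 1.48 ± 0.27 (SD, n = 4 replicates) for NFKBIA, by 2.05 ± 1.09 for NFKBIZ, by 1.28 ± 0.57 for BCL3 and by 0.99 ± 0.23 for RELB, in 4 of 4 replicates each. The day 3 and later ratios did not overlap for NFKBIA, NFKBIZ and BCL3, and they overlapped for RELB. For NFKB1 the mean change of the ratio was -0.02 ± 0.31, with 2 replicates in each direction. For NFKB2 it was 0.34 ± 0.30 and for TNFAIP3 0.24 ± 0.51, higher on day 3 in 3 of 4 replicates each, with overlap. These ratios show unequal change between genes and not which of them changed.

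The same contrast was then read within each knockdown, where fewer calls were made. After PNPase knockdown, 2 of the 8 genes passed, against 7.58% of the panel. NFKBIA was higher on day 3 by 1.03 ± 0.15 (adjusted p = 0.00596, limma) and RELB by 0.87 ± 0.21 (adjusted p = 0.0434). NFKBIZ at 1.75 ± 0.51 (adjusted p = 0.0789), BCL3 at 0.84 ± 0.26 (adjusted p = 0.0885) and NFKB1 at -0.47 ± 0.14 (adjusted p = 0.0789) did not pass. With no scaling, the NFKBIA difference after PNPase knockdown was 0.42 (adjusted p = 0.206), and that of RELB was 0.26 (adjusted p = 0.399). Both calls were also lost without either PNPase replicate, where NFKBIA stood at 0.91 without 545 and 1.15 without 1717. In those fits the lone PNPase replicate is assumed to vary like the SUV3 ones.

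After PNPase knockdown the scale decided which genes passed. NFKB1 passed as lower on day 3 under all 4 other scalings, at -1.08 with no scaling (adjusted p = 0.00543, limma), -0.72 with the total (adjusted p = 0.0188), -1.16 with the positive controls (adjusted p = 0.00657) and -0.60 with the median log ratio (adjusted p = 0.0394). With no scaling the 2 genes that passed were NFKB1 and RELA, both lower. With the positive controls they were NFKB1, RELA and NFKB2, all lower, and neither NFKBIA nor RELB passed. RELB passed under none of the 4 other scalings, and NFKBIA passed with the total and with the median log ratio.

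After SUV3 knockdown, 2 of the 8 passed, against 5.39% of the panel. NFKBIA was higher on day 3 by 1.55 ± 0.15 (adjusted p = 0.00125, limma) and BCL3 by 1.26 ± 0.26 (adjusted p = 0.0360). NFKBIZ at 1.91 ± 0.51 (adjusted p = 0.0709), RELB at 0.71 ± 0.21 (adjusted p = 0.0893) and NFKB1 at 0.05 ± 0.14 (adjusted p = 0.895) did not pass. NFKBIA passed under all 5 scalings. The BCL3 call was lost with no scaling (0.96, adjusted p = 0.0593) and with the positive controls (1.02, adjusted p = 0.0685). It was also lost with no replicate block and without day 4, 5 or 6. Without replicate 1595 the BCL3 difference was 0.67 (adjusted p = 0.168), and without replicate 1727 it was 1.85 (adjusted p = 0.0300). NFKBIA missed the threshold without replicate 1595 (1.72, adjusted p = 0.0867) and without replicate 1727 (1.37, adjusted p = 0.0744), where a lone SUV3 replicate is assumed to vary like the PNPase ones.

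The difference between the day 3 contrasts of the knockdowns was tested directly. No gene of the panel passed in limma, while 43, or 7.24%, had an unadjusted p under 0.05; of the 8, 2 were among these. The largest differences among the 8 were in NFKB1, at -0.52 ± 0.20 (PNPase minus SUV3, adjusted p = 0.604), and in NFKBIA, at -0.52 ± 0.21 (adjusted p = 0.615). The 95% intervals, -0.98 to -0.06 for NFKB1 and -1.0 to -0.03 for NFKBIA, are not adjusted for the number of genes. The interval of NFKBIZ, -1.82 to 1.49, leaves room for large differences in both directions, and that of BCL3, -1.27 to 0.44, mainly in the negative direction. The knockdowns are therefore not shown to act alike.

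**Figure D4:**
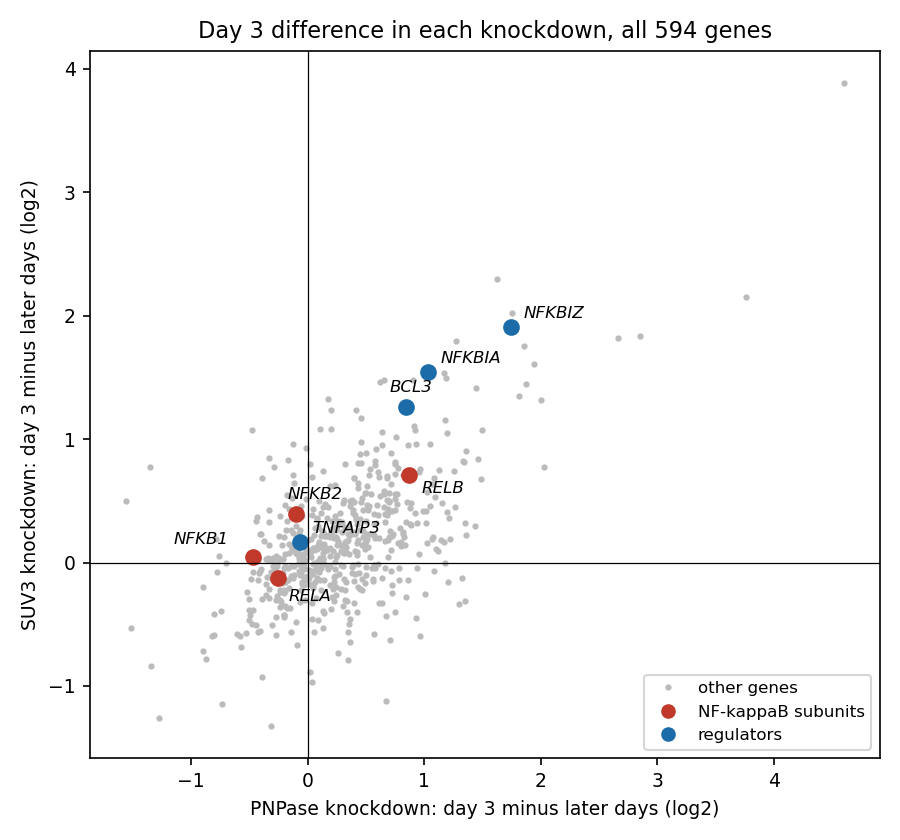
Day 3 minus the mean of days 4 to 6 in log2 after SUV3 knockdown against the same after PNPase knockdown, with the 8 genes named (subunits red, regulators blue) and the other panel genes in grey. NFKBIA, NFKBIZ, BCL3 and RELB are above 0 on both axes, with NFKBIA at 1.03 for PNPase and 1.55 for SUV3.

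Most of the NFKBIA and NFKBIZ difference lay between days 3 and 4. From day 3 to day 4 the NFKBIA change was -1.49 to -0.86 log2 units over the 4 replicates, and from day 4 to day 6 it was -0.38 to 0.04. For NFKBIZ the same steps gave -2.96 to -0.80 and -0.60 to 0.39. A line through the 4 days gave fewer calls than the day 3 contrast. The slope of BCL3 after SUV3 knockdown passed, at -0.51 ± 0.11 log2 per day (adjusted p = 0.0329, limma), against 1.68% of the panel. The slopes of NFKBIA, at -0.50 ± 0.12 (adjusted p = 0.0546), and RELB, at -0.29 ± 0.09 (adjusted p = 0.113), did not pass there. After PNPase knockdown none of the 8 passed, against 0.168% of the panel, and 4 had an unadjusted p under 0.05, against 22.1%. There the slopes were -0.35 ± 0.11 for BCL3 (adjusted p = 0.0972), -0.34 ± 0.12 for NFKBIA (adjusted p = 0.136) and -0.32 ± 0.09 for RELB (adjusted p = 0.0747).

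The BCL3 slope after SUV3 knockdown did not pass in 12 of the 18 alternative settings, among them each fit that left out a replicate. The slopes of the knockdowns differed in no panel gene by limma, with 39 genes, or 6.57%, at an unadjusted p under 0.05 and none of the 8 among them. NFKB1 had a slope difference of 0.18 ± 0.09 (PNPase minus SUV3, adjusted p = 0.780). Between day 6 and day 4, all 8 estimates were negative and none passed, against 0.168% of the panel, whose median was -0.11. BCL3 was the only 1 of the 8 with an unadjusted p under 0.05, as were 8.25% of panel genes; it stood at -0.56 ± 0.23 (unadjusted p = 0.0392, adjusted p = 0.561, limma) and was lower on day 6 than on day 4 in all 4 replicates.

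The second question was whether the 2 knockdowns differed in level over all days, with each replicate averaged over its 4 days. This sets 2 replicates against 2. The positive control factor was 0.0196 to 0.294 in log2 in the PNPase samples and -0.263 to 0.0127 in the SUV3 samples. These ranges did not overlap, so a difference in the assay ran along with the knockdown. Its part in the values below was not tested beyond the scalings. No gene passed in limma, and 38 genes, or 6.4%, had an unadjusted p under 0.05; none of the 8 was among those. Their adjusted p-values ran from 0.722 to 0.938. The median of the 8 differences (PNPase minus SUV3) was -0.25, beside -0.15 for the panel.

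NFKB1 was the 1 gene of the 8 whose samples separated by knockdown. Its 8 PNPase samples, with a lowest, median and highest level of 5.75, 6.47 and 6.83, all lay below its 8 SUV3 samples, at 6.91, 7.11 and 7.25; this was so for 17 panel genes, or 2.86%. The difference was -0.64 ± 0.26 (unadjusted p = 0.0515, adjusted p = 0.722, limma), with a 95% interval of -1.29 to 0.01. Without PNPase replicate 545 it was -0.41 (unadjusted p = 0.226, limma) and without 1717 it was -0.87 (unadjusted p = 0.0447, limma), and it passed after adjustment in neither. The unscaled deposited values overlapped, at 49 to 143 after PNPase knockdown and 105 to 141 after SUV3 knockdown. The NFKB1 difference was -0.34 with no scaling and -0.62 with scaling to the positive controls. Treating the 8 samples of each knockdown as separate replicates gave an adjusted p of 0.00945, but the days of a replicate are repeated samples of it.

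The PNPase minus SUV3 estimate was -0.60 ± 0.25 for NFKBIA and -0.59 ± 0.38 for NFKB2, both with an adjusted p of 0.722 in limma. The NFKB2 value rested on SUV3 replicate 1727, whose mean level was 7.58 ± 0.30 (SD over 4 days), against 6.56 ± 0.17 in SUV3 replicate 1595, 6.44 ± 0.25 in PNPase replicate 545 and 6.51 ± 0.27 in 1717. Without 1727 the NFKB2 difference was -0.08, and without 1595 it was -1.10. The other 5 genes gave 0.31 ± 0.22 for BCL3, -0.32 ± 0.25 for RELB, -0.19 ± 0.38 for TNFAIP3, -0.13 ± 0.25 for NFKBIZ and -0.06 ± 0.22 for RELA. The intervals of RELA, -0.61 to 0.49, and TNFAIP3, -1.16 to 0.77, show the limit that 2 replicates a side set. Both PNPase replicate means were below both SUV3 means in 4 of the 8 genes, against 30% of the panel, and above them in 1 of 8, against 8.42%.

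The rest of the pathway was read from lists chosen for their role, with earlier results of these data known. Of 53 genes that act upstream of the factor (receptors, adaptors and kinases), 42 were measured, and 5 passed in the day 3 contrast, or 11.9% against 16.2% of the panel. Higher on day 3 were TBK1, an IKK-related kinase, by 0.41 ± 0.08 (adjusted p = 0.0119, limma), BCL10, an adaptor of lymphocyte receptor signalling, by 0.30 ± 0.08, and TLR4, the receptor for lipopolysaccharide, by 0.85 ± 0.24. Lower on day 3 were TRAF2, an adaptor of TNF receptors, at -0.48 ± 0.08 (adjusted p = 0.00755), and TLR2, the receptor for bacterial lipopeptides, at -0.49 ± 0.09. The median over the 42 was -0.00 on the housekeeping scale. The 3 higher calls were made on that scale only: under the 4 other scalings no upstream gene passed as higher, TBK1 and BCL10 were negative with no scaling and with the positive controls, and 4 to 20 genes passed as lower. TRAF2 and TLR2 passed as lower under all 5 scalings.

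Of 50 known target genes, 43 were measured and 11 passed in the day 3 contrast, 9 higher and 2 lower, or 25.6% against 16.2% of the panel; their median was 0.40 against 0.19. CCL3, a chemokine for monocytes, had deposited values of 55, 82.5 and 159 (lowest, median and highest) on day 3 and 10, 13 and 25 later, and passed as higher on day 3 (adjusted p = 0.000515, limma); its later values lay about the negative level of 12.9, so no fold is given. CD83, an activation marker of myeloid cells, was higher by 1.12 ± 0.10 (adjusted p = 0.000307), with deposited values of 202, 261 and 404 on day 3 and 116, 166.5 and 275 later. PTGS2, the inducible cyclooxygenase, was higher by 1.89 ± 0.25 and IL8, a neutrophil chemokine, by 1.58 ± 0.27. CCL4 and CCL20, which are chemokines too, also passed as higher (adjusted p = 0.00894 and 0.00783). The deposited CCL4 values (lowest, median, highest) were 29, 31.5 and 65 at day 3, against 4, 10 and 19 later, about the negative level. CCL20 lay about the negative level on both sides, at 8, 16.5 and 66 on day 3 and 3, 9.5 and 24 later, so nothing is read from its call. CCL3, CD83, PTGS2, IL8 and CCL4 passed as higher on day 3 under all 5 scalings. Over the 43 targets 6, CCL20 among them, passed as higher and 2 to 7 as lower under each of the other 4, with medians from -0.03 to 0.28.

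Not every target went that way. IL1B, which encodes interleukin-1 beta, was lower on day 3 at -1.09 ± 0.19 (adjusted p = 0.00783, limma), with deposited values of 21, 38.5 and 66 on day 3 and 39, 140 and 193 later. BCL2, a survival gene, was lower at -0.46 ± 0.10 (adjusted p = 0.0154). Both passed as lower under all 5 scalings. Within PNPase knockdown 8 of the 43 targets passed, 7 higher and 1 lower, which is 18.6% against 7.58% of the panel. Of the higher ones, CCR7 averaged 6.375, below the negative level, and ICAM1 averaged 14.1, near it, so nothing is read from their calls. These shares are from the housekeeping scale only, where 45 panel genes passed, against 146 with no scaling and 160 with the positive controls. Within SUV3 knockdown, on the same scale, 5 passed, all higher and CCL20 among them, which is 11.6% against 5.39% of the panel. CCL3, CD83 and PTGS2 passed in both, with estimates of 1.19 and 1.05 for CD83 and 1.75 and 2.02 for PTGS2.

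Finally, the genes most like each of the 8 were found by the Pearson correlation of scaled levels over the 16 samples, among the other genes above the negative level. These correlations are descriptions, since the samples share cultures, days and a scale. The closest gene was MCL1, an anti-apoptotic BCL2 relative, for NFKBIA (r = 0.95), with TBK1 next (0.90). For RELB they were CD83 and CD46 (both 0.88), for BCL3 they were TAPBP and IL32 (both 0.91), and for NFKBIZ they were CDKN1A (0.81) and POLR2A (0.80), the last of which is 1 of the 15 genes that set the scale. NFKB1 was closest to IKBKAP (0.95), NFKB2 to IFI35 (0.89) and ETS1 (0.88), RELA to IKZF1 (0.87), and TNFAIP3 to SMAD5 (0.82) and CD164 (0.79). When each replicate's mean was first removed, r was 0.11 for ETS1 and NFKB2, 0.27 for SMAD5 and TNFAIP3, and 0.96 for MCL1 and NFKBIA. Among the 8 genes, all 28 pairs had a median r of 0.27, and all pairs of panel genes above the negative level had a median of 0.10.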

How the data were processed

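The deposited values of the authors are a score: whole numbers per gene and sample, which the name of 1 of the 2 deposited tables calls corrected for unwanted variation, with no further detail given in the sources used here. Both deposited tables held the same values in every gene. The values were taken as unscaled linear levels, and whether the authors' correction had already scaled the samples was not tested. Each sample was divided by the geometric mean of 15 housekeeping genes, and log2(value + 1) was taken. Then limma 3.58.1 in R 4.3.3 (lmFit, eBayes) was fitted over all genes with Benjamini-Hochberg adjustment at 0.05. Day contrasts and slopes had an intercept for each of the 4 replicates, since the design text says that the days came from each replicate. The SE of a day contrast pooled the spread between replicates over all days, so it need not measure the spread on day 3. As a check, deviations from the group mean of the same replicate on different days correlated over all genes at 0.04 to 0.67 (PNPase) and 0.23 to 0.60 (SUV3). The difference between knockdowns used replicate means. Scripts were tested on simulated data. Alternatives were other scalings, log2(value + 10), subtraction of the negative controls, a filter on low genes, a mean-variance trend, no or a random replicate block, and leaving out each replicate or day. All 8 genes are named; of each list, genes past the threshold are named (at most 8 per comparison, by p), and for each of the 8 genes the 2 most correlated, of which some are not reported here. The genes, lists and tests were chosen with earlier results of these data known. Promoter motifs were searched in the 250 bases before each start site.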

Additional observations from a re-analysis of the deposited data

Results flagged for a closer look

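One value stood far from the others. The NFKBIZ level of SUV3 replicate 1727 on day 3 was 8.0971 in log2 (deposited value 227), and its gap to the next of the 8 SUV3 samples was 0.6208 of their whole range, above the critical value of Dixon's test at the 95% level. Of 16 such groups of 8 samples (8 genes in each knockdown) this was the only one so marked. Chance marks about 1 in 20 groups of independent samples that are alike. That rate does not hold here, since each group spans 4 days of 2 replicates and NFKBIZ was higher on day 3. Without replicate 1727 the NFKBIZ difference between day 3 and the later days was 1.19 with both knockdowns averaged. The SUV3 difference was then that of replicate 1595 alone, at 0.63. The spread in that fit came from the PNPase replicates only, so it cannot test how far the call depends on the marked value.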

How the results depend on the processing

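The precision is set by 2 replicates per knockdown. Counts of panel genes past the threshold moved with the setting, and the cause was not tested. For day 3 against later days the main count was 96; it was 169 with no scaling, 157 with the positive controls, 179 with the negative controls subtracted, 36 with no replicate block, 57 without day 5, 39 without day 6 and 10 to 84 without 1 replicate. Of the 8 genes 4 passed, 1 without day 6 and 1 to 4 without 1 replicate. After PNPase knockdown 45 panel genes passed; the count was 146 with no scaling, 71 with the total, 160 with the positive controls, 70 with a mean-variance trend, 16 with no replicate block, 13 without day 5, 13 without day 6 and 0 to 54 without 1 replicate. Of the 8 genes 2 passed there, NFKBIA and RELB, both higher; with no scaling 2 others passed, NFKB1 and RELA, both lower, and with the positive controls 3, NFKB1, RELA and NFKB2, all lower. The count was 4 with only genes above the negative controls, 1 with no replicate block, without day 4 or without day 6, 0 without day 5, and 0 to 4 without 1 replicate. After SUV3 knockdown 32 passed; the count was 17 with no scaling, 15 with the positive controls, 58 with log2(value + 10), 61 with only genes above the negative controls, 63 with the trend, 7 with no replicate block, 11 without day 4, 4 without day 5, 5 without day 6 and 0 to 9 without 1 replicate. Of the 8 genes 2 passed there, 1 with no scaling, the positive controls, no replicate block or without day 4, 5 or 6, 4 with log2(value + 10) or only genes above the negative controls, and 0 to 1 without 1 replicate. The difference of these contrasts gave 0, but 4 with the negative controls subtracted and 0 to 1 without 1 replicate. Day 6 against day 4 gave 1 with the main settings and with a random replicate block, and 0 under the other alternatives, those without 1 replicate included.

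The PNPase slope gave 1 panel gene; the count was 120 with no scaling, 156 with the positive controls, 0 with the median log ratio, 74 with the negative controls subtracted, 13 with only genes above the negative controls, 13 with the trend, 7 with a random replicate block, 17 without day 4, 0 without day 3, 5 or 6, and 0 to 10 without 1 replicate. Of the 8 genes 0 passed, 2 with no scaling or the positive controls and 1 with the negative controls subtracted. The SUV3 slope gave 10; the count was 0 with no scaling, the positive controls, no replicate block or without day 3, 5 or 6, 4 with the total, 5 with the median log ratio or the negative controls subtracted, 21 with only genes above the negative controls, 27 with the trend and 0 to 2 without 1 replicate. Of the 8 genes 1 passed, 2 with log2(value + 10), only genes above the negative controls, the trend or a random replicate block, and 0 with no scaling, the positive controls, the negative controls subtracted, no replicate block, without day 3, 5 or 6, or without 1 replicate. The slope difference gave 0, but 1 with no scaling, the positive controls, the negative controls subtracted, only genes above the negative controls or without day 3, and 0 to 1 without 1 replicate. The knockdown difference gave 0, but 52 with no replicate block, of which 1 was NFKB1, and 13 with a random replicate block.

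Some estimates that had not passed turned their direction. In the knockdown difference, RELA was 0.24 with no scaling, 0.0566 with the median log ratio and -0.13 to 0.0069 without 1 replicate, NFKBIZ was 0.17 with no scaling and -0.31 to 0.0522 without 1 replicate, and TNFAIP3 was 0.11 with no scaling and -0.70 to 0.31 without 1 replicate. In the day 3 contrast, NFKB2 was -0.31 with no scaling, -0.0667 with the total and -0.32 with the positive controls. TNFAIP3 was -0.41, -0.16, -0.42 and -0.0911 with no scaling, the total, the positive controls and the median log ratio, and -0.24 to 0.35 without 1 replicate. After SUV3 knockdown NFKB1 was -0.26, -0.14, -0.20 and -0.11 under the same 4 scalings, -0.0141 without day 6 and -0.10 to 0.19 without 1 replicate. Of the comparisons of single genes with alternatives, 518 kept direction and side of the threshold, 49 lost the call, 36 gained one and 23 reversed.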
